A study of Mus musculus with 15 samples.

Results

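Hepatocytes move bile acids from portal blood into bile with a small set of membrane transporters, and transcripts of 10 such genes were followed in the liver of 15 mice. The genes were chosen by name and by the membrane on which the protein works. Earlier results of these data were known when the genes were chosen. All 10 of them were found among 55450 measured gene IDs. The low-count filter left 15808 genes to test, and all 10 were among them. Slco1a1 passed this filter only through the Adult mice, where it was high. Uptake genes number 3 (Slc10a1, Slco1a1 and Slco1b2), genes of export into the bile canaliculus number 5 (Abcb11, Abcb4, Abcc2, Abcg5 and Abcg8), and genes of export back into blood across the basolateral membrane number 2 (Abcc3 and Abcc4).

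All mice were female C57BL/6 animals. The Adult mice, numbered A1 to A5, entered the study at 6 months of age and were gavaged daily with corn oil as vehicle. The Old mice, numbered O1 to O5, entered it at 22 months and were given that same vehicle. The PDX mice, numbered P1 to P5, likewise entered at 22 months. They were gavaged daily with protectin DX, a lipid mediator derived from docosahexaenoic acid, at 30 ng per g of body weight in corn oil. By the paper, gavage followed acclimation and baseline tests. All mice were thus older than these ages at treatment and when the liver was taken. The gavage lasted 9 weeks by the treatment protocol and 8 weeks by the series' design text. No Adult mouse received PDX, so the Adult and PDX groups differ in both age and treatment. Frozen whole liver was used, which holds all hepatic cell types and was not sorted.

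Bile acids circulate between intestine and liver. The sodium-dependent carrier encoded by Slc10a1 and the organic anion carriers encoded by Slco1a1 and Slco1b2 bring them and other organic anions from sinusoidal blood into the hepatocyte. At the canaliculus, Abcb11 encodes the bile salt export pump, Abcc2 encodes an exporter of conjugated organic anions such as bilirubin glucuronides, Abcb4 encodes the floppase that delivers phosphatidylcholine to bile, and Abcg5 and Abcg8 encode the partners of a heterodimer that exports cholesterol and plant sterols. Abcc3 and Abcc4 encode exporters on the blood side of the cell, which return conjugated anions and bile acids to the circulation. The bile acid receptor FXR (Nr1h4) is known to raise Abcb11 transcription, and liver X receptors are known to raise Abcg5 and Abcg8.

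Short promoter stretches are shown for 4 members whose values ran together between mice, taken from RefSeq windows of the build GRCm38.p6 that span 250 bases before to 50 bases after a gene's start. Of the 10 members, 9 had such a window, and Abcc3 had none. The first pair is shown because Abcb11 and Slco1b2 held the letters GGNCANTGNCC, an inverted repeat with a single base between the half-sites as FXR is known to bind, searched on both strands. These letters were present in 0.676% of the 32851 mouse windows searched and in 2 members. Capitals mark the match, whose first base lay 62 bases before the start in Abcb11 (chr2:69342628-69342718 printed, minus strand) and 87 bases before it in Slco1b2 (chr6:141629391-141629481 printed, plus strand).
Abcb11: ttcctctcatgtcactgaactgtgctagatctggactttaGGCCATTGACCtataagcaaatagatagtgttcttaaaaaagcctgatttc
Slco1b2: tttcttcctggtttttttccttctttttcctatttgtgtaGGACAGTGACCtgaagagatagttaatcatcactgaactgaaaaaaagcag

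The second stretch is shown because Abcg5 and Abcg8 lie head to head on chromosome 17 and share it. Their starts, at 84683011 and 84683121, are 109 bases apart, and the windows of both genes overlap by 209 bases. The whole sequence between the starts (chr17:84683012-84683120, plus strand, the strand of Abcg8) is printed with the GATA letters TTATCT in capitals, which occurred in 11.2% of all windows on either strand.
Abcg5 to Abcg8: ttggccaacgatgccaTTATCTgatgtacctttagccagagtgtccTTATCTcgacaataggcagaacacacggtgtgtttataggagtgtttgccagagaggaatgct
A direct repeat with 4 bases between its half-sites, of the kind that liver X receptors bind (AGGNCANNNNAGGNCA), matched 0.253% of windows and 0 members. A direct repeat with 1 base between (GGNCANAGGNCA) matched 0.801% of windows and also 0 members. The E-box CACGTG matched 7.15% of windows and 1 member, Abcc4, with its first base 205 bases before the start. A match describes letters in these windows and not binding.

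The libraries held 22.4 to 36.1 M counted read pairs in Adult, 25.5 to 29.1 M in Old and 26.1 to 30.1 M in PDX mice. Levels are given as CPM, the counts of a gene per M counts of the library after TMM scaling, and as TPM where genes are compared with each other, since TPM first divides each count by the length of the exons. Changes are log2 fold changes with their standard error (SE) from edgeR's quasi-likelihood test in a single fit of all 15 mice, and adjusted p-values are corrected over all genes tested, with a threshold of 0.05. The study names O2 and O5 as standing apart from the other Old mice. The label frailty index was 0.56 in O5, the highest of the 15 mice, and 0.11 in O2. By the labels, O2 had the shortest treadmill distance of the 15 mice, at 33.9 m, and 3 positive frailty criteria. In O5 the hepatocyte gene Alb was at 34724 CPM, against 105807 to 115896 CPM in Adult mice, while Tat, a hepatocyte aminotransferase, was at 13538 CPM, against 1687 to 3697 CPM in Adult mice. O2 had the highest summed level of 7 Kupffer cell and macrophage markers (2753 CPM, against 394 to 602 CPM in Adult mice) and of 7 lymphocyte markers (119.6 CPM, against 7.26 to 13.7 CPM in Adult mice).

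Of the 10 transporters, 4 fell in Old and 2 in PDX mice against Adult mice by edgeR's test. Between Old and Adult mice, 4 of the 10 members passed the test, all of them lower in Old (Slco1a1, Abcc2, Abcg5 and Abcg8), where 6.78% of all genes tested passed in either direction and 2.07% passed as lower. The groups did not overlap for 7 members, 6 lower and 1 higher in Old, where 8.13% of all genes did not overlap (4.48% lower and 3.65% higher). The median log2 fold change of the 10 members was -1.08, beside 0.07 over all genes tested. Between PDX and Adult mice, 2 members passed (Slco1a1 and Abcc2, both lower in PDX), where 2.66% of all genes passed in either direction and 0.898% as lower, and 6 members lay lower without overlap, where 19.9% of all genes did not overlap in either direction and 9.34% lay lower. The median of the members was -0.65, beside -0.01 over all genes. These comparisons share the Adult mice, and Slco1a1, counted in both, passed the low-count filter only through those mice.

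The number of members that passed differed between fits and tools. Between Old and Adult mice, DESeq2 called 7 members, the 4 above with Slc10a1, Slco1b2 and Abcc4 (16.0% of all genes), the fit of those groups alone called 2 (0.698% of all genes), and fits without O3, without O5 and without O2 and O5 called 7, 5 and 5 members (13.5%, 13.2% and 7.12% of all genes). Between PDX and Adult mice, DESeq2 called 3 members, Slco1a1, Abcc2 and Abcc3 (8.75% of all genes), the fit of those groups alone called 7 (29.6%), and the fits without O5 and without O2 and O5 called 4 and 8 members (10.9% and 24.6%). Slco1a1 was called in all of these fits, and Abcb4 in none of them. Without O2 and O5, the 4 calls between Old and Adult mice held (Slco1a1 at -4.43, Abcc2 at -0.59, Abcg5 at -1.03 and Abcg8 at -0.96, adjusted p at most 0.0423), and Slc10a1 moved to -0.52, Abcb11 to -0.44, Abcb4 to -0.39 and Abcc3 to -1.53, none of which passed. In bulk liver RNA, fewer hepatocytes and less transporter RNA per hepatocyte cannot be told apart.

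**Figure D1:**
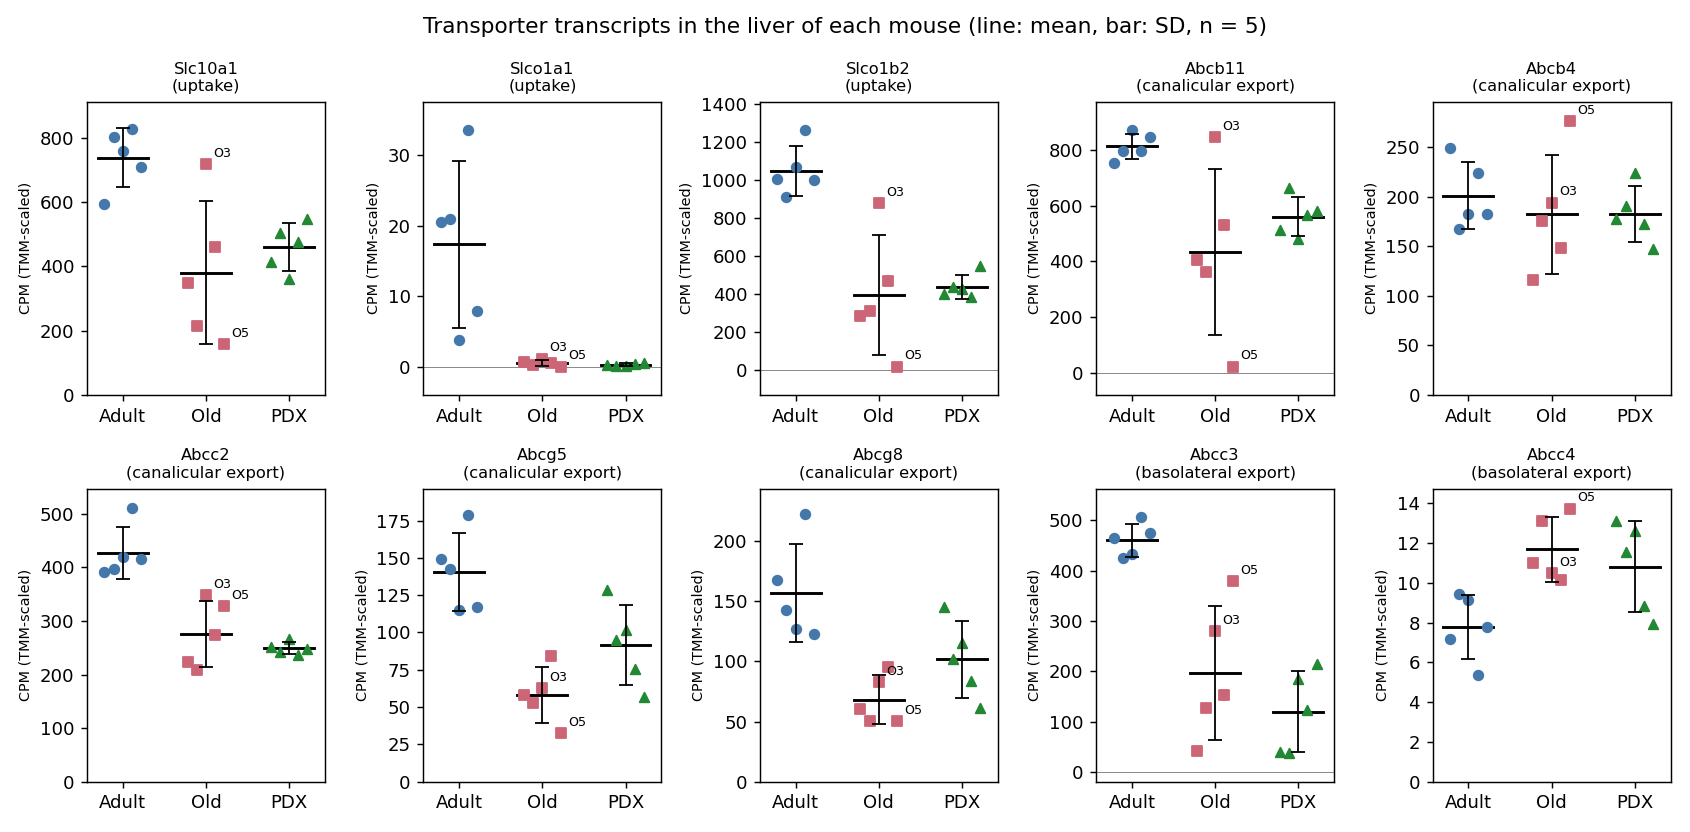
Level of each of the 10 transporters (vertical axis, CPM on TMM-scaled library sizes, starting at or just below 0) in every mouse of the Adult, Old and PDX groups (horizontal axis), with the mean as a line, the SD as a bar (n = 5) and the mice O3 and O5 marked. Slco1a1 is near 0 in all older mice, O5 is near 20 CPM for Slco1b2 and Abcb11 while O3 is at 879 and 846 CPM, and Abcc4 is the member with higher Old than Adult values.

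Levels per length set the scale of the set. In Adult liver the order by mean TPM (SD, n = 5) began with Slc10a1 at 856 ± 112, Slco1b2 at 545 ± 82.8, Abcb11 at 403 ± 22.9 and Abcc3 at 206 ± 20.4, and the ranges of these 4 neighbours did not overlap. Abcg5 (132 ± 27.7), Abcc2 (128 ± 17.9) and Abcg8 (107 ± 30.9) followed with overlapping ranges, then Abcb4 at 54.8 ± 10.3 without overlap with Abcg8. Slco1a1 at 8.45 ± 5.93 and Abcc4 at 3.09 ± 0.579 closed the order, and their ranges overlapped. Uptake genes thus held the top and nearly the bottom of the Adult order.

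In Old liver, Slc10a1 again led at 461 ± 272 TPM (SD, n = 5), and Abcb11 (227 ± 161) and Slco1b2 (217 ± 179) came next, and each neighbour's range overlapped with the next from Slc10a1 down to Abcg8. Abcc4 (5.08 ± 1.57) and Slco1a1 (0.257 ± 0.219) changed places at the foot of the order and no longer overlapped. In PDX liver, Slc10a1 at 526 ± 68.5 TPM stood clear of Abcb11 at 275 ± 23.3, and the next gene, Slco1b2 at 226 ± 32.2, overlapped with Abcb11 and stood clear of Abcg5 at 85.5 ± 26.0. Abcc3, ranked the fourth in Adult liver, was the seventh in PDX liver at 54.1 ± 37.4 TPM, between Abcg8 (68.7 ± 22.2) and Abcb4 (49.4 ± 9.96), with overlapping ranges on both sides.

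**Figure D2:**
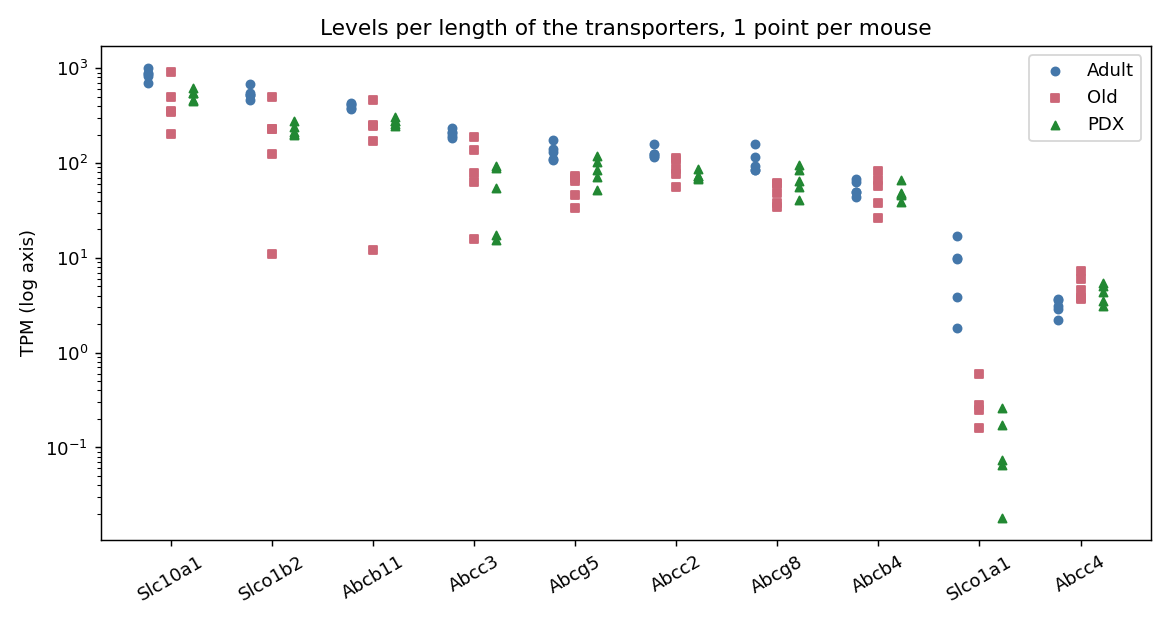
Level per length of the 10 transporters (vertical log axis, TPM) in the order of their Adult means (horizontal axis), with 1 point per mouse and Adult, Old and PDX mice side by side. Slc10a1 has the highest mean in all 3 groups, Slco1a1 drops from a mean of 8.45 TPM in Adult mice to 0.257 in Old and 0.118 in PDX mice, and the O5 value of 0 TPM for Slco1a1 cannot be drawn on a log axis.

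Among the uptake genes, Slco1a1 fell furthest. Slco1a1 (ENSMUSG00000041698, GRCm38 chr6:141907282-141946962, minus strand) encodes an organic anion carrier of the basolateral membrane whose liver expression is known to be higher in male than in female mice. In Adult mice A1 to A5 it stood at 20.5, 21.0, 3.78, 33.5 and 7.92 CPM. In O1 to O5 it stood at 0.68, 0.234, 1.13, 0.557 and 0 CPM. In P1 to P5 it stood at 0.158, 0.0401, 0.126, 0.357 and 0.55 CPM. The lowest Adult mouse, A3, was above every older mouse, so the groups did not overlap, although the Adult mice themselves spanned 8.86-fold.

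The fold change of Slco1a1 was -5.07 ± 0.79 (log2, SE) in Old against Adult mice (adjusted p = 0.00569) and -6.09 ± 0.85 in PDX against Adult mice (adjusted p = 0.00174). The Old mean was 3.00% of the Adult mean and the PDX mean 1.42%. These values rest on 0 to 30 read pairs per Old mouse and 1 to 16 per PDX mouse, against 83 to 916 per Adult mouse, so the size of the fitted change is less certain than its direction. The 0 in O5 allows up to 0.108 CPM by counting error (3 counts). PDX and Old mice overlapped, with a difference of -1.03 ± 0.83 (adjusted p = 0.804). Read pairs that aligned to several members of the Slco1a family were not counted, which could lower its count. Leaving out any single mouse kept both calls against Adult, with adjusted p-values of 0.00255 to 0.0206 for Old and 0.000292 to 0.00716 for PDX.

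Slc10a1 (ENSMUSG00000021135, GRCm38 chr12:80953183-80968705, minus strand), the main sodium-dependent bile acid carrier, was below the Adult range in 9 of 10 older mice without passing edgeR's test. Adult mice A1 to A5 had 593, 803, 759.6, 825 and 710.2 CPM. O1 to O5 had 349, 216, 718, 461 and 158 CPM, and P1 to P5 had 412, 504, 359, 477 and 547 CPM. Every PDX mouse lay below every Adult mouse, and so did all Old mice except O3, which lay inside the Adult range. The change was -0.96 ± 0.32 (log2, SE; adjusted p = 0.0714) in Old and -0.68 ± 0.31 (adjusted p = 0.233) in PDX against Adult mice. The Old change passed by DESeq2 on all mice (-0.95, adjusted p = 0.0229) and by edgeR without O3 (-1.32, adjusted p = 0.0106).

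Slco1b2 (ENSMUSG00000030236, GRCm38 chr6:141629518-141686646, plus strand), the liver-restricted organic anion carrier of the mouse, spread widely among Old mice. A1 to A5 had 1004, 914, 1067, 1263 and 999.96 CPM. O1 to O5 had 287, 313, 879, 470.1 and 19.5 CPM, a 45.02-fold span from O5 to O3. P1 to P5 had 404, 438, 428, 386 and 548 CPM, a 1.42-fold span. All 10 older mice were below all 5 Adult mice, with mean levels of 37.5% of the Adult mean in Old and 41.97% in PDX mice.

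The change of Slco1b2 did not pass edgeR's test in the fit of all mice, at -1.41 ± 0.56 (log2, SE; adjusted p = 0.118) in Old and -1.25 ± 0.56 (adjusted p = 0.216) in PDX against Adult. It passed between Old and Adult by DESeq2 on all mice (-1.41, adjusted p = 0.0477), and by edgeR without O5 (-1.11, adjusted p = 0.0247), without O3 (-1.95, adjusted p = 0.0354) and without O2 and O5 together (-0.93, adjusted p = 0.0499). Between PDX and Adult it passed without O5 (-1.25, adjusted p = 0.00991). All mice of a fit share the estimate of the spread, so leaving out an Old mouse changes that test too. With only the Adult and PDX mice in the fit, the 7 members that passed were Slc10a1, Slco1a1, Slco1b2, Abcb11, Abcc2, Abcg5 and Abcc3. Without O2 and O5, the 8 members that passed in that comparison were those 7 and Abcc4.

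Abcb11 (ENSMUSG00000027048, GRCm38 chr2:69238282-69342616, minus strand), the bile salt export pump, was the steadiest member among Adult mice and among the most variable in Old mice. Adult levels in A1 to A5 were 752, 798, 871, 796 and 846 CPM, a 1.16-fold span. Old levels in O1 to O5 were 406, 361, 846, 531 and 22.1 CPM, a 38.2-fold span. P1 to P5 had 513, 663, 482, 567 and 581 CPM, all below the Adult range. O3 was inside the Adult range, and O5 was far below every other mouse. Neither change passed the test, at -0.91 ± 0.53 (log2, SE; adjusted p = 0.276) in Old and -0.53 ± 0.52 (adjusted p = 0.608) in PDX against Adult. Without O2 and O5 the PDX change of -0.52 passed (adjusted p = 0.0306).

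Abcb11 and Slco1b2, the genes with the inverted-repeat letters printed above, were the members that O5 left at about 20 CPM. Over the 15 mice their log2 CPM had a Pearson r of 0.97, a value that includes O5 and spans the age groups. The ratio of Slco1b2 to Abcb11 per length was 1.20 to 1.66 in Adult, 0.739 to 1.08 in Old and 0.690 to 0.984 in PDX mice. O5, at 0.920, lay within the range of the other Old mice. Slc10a1 was also lowest in O5, but it stood at 21.5% of the Adult mean, against 2.72% for Abcb11 and 1.86% for Slco1b2. The ratio of Slc10a1 to Abcb11 per length was thus 16.7 in O5. This ratio was 1.84 to 2.43 in Adult mice, 1.40 to 2.03 in O1 to O4 and 1.74 to 2.20 in PDX mice. Over the 15 mice, Slc10a1 had r = 0.83 with Abcb11 and 0.89 with Slco1b2. Nr1h4, which encodes the receptor FXR, was at 37.5 CPM in O5 against 111 to 174 CPM in Adult mice, and Nr0b2, a known target of FXR, was at 3.43 CPM against 19.4 to 56.1 CPM. P2 was the only other mouse below the Adult range for both, at 68.0 and 13.4 CPM. Its Abcb11 and Slco1b2 were at 663 and 438 CPM. The part of Nr1h4 or Nr0b2 in the values of O5 was not tested.

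Abcb4 (ENSMUSG00000042476, GRCm38 chr5:8893717-8959231, plus strand), the phosphatidylcholine floppase, showed no detectable group difference. A1 to A5 had 249, 168, 182, 224 and 183 CPM. O1 to O5 had 116, 176, 194, 148 and 276 CPM, and P1 to P5 had 178, 191, 224, 172 and 147 CPM. All groups overlapped. O5, lowest for most members, was the highest mouse of all for Abcb4, and its ratio of Abcb4 to Abcb11 per length was 6.85 against 0.115 to 0.181 in Adult mice. The change was -0.14 ± 0.21 (log2, SE) both in Old (adjusted p = 0.686) and in PDX mice (adjusted p = 0.755) against Adult, and a small change was not detectable at this spread.

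Abcc2 (ENSMUSG00000025194, GRCm38 chr19:43782192-43840740, plus strand), the canalicular exporter of conjugated anions, fell in both older groups. A1 to A5 had 392, 396, 419.9, 511 and 416 CPM. O1 to O5 had 223, 209, 347, 274 and 328 CPM, and P1 to P5 had 252, 242, 267, 237 and 248 CPM, which was the tightest group of any member (1.13-fold span). No older mouse reached the lowest Adult mouse. The change was -0.63 ± 0.15 (log2, SE; adjusted p = 0.0297) in Old and -0.78 ± 0.15 (adjusted p = 0.0152) in PDX against Adult, and -0.15 ± 0.15 (adjusted p = 0.828) between PDX and Old mice.

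The Old call of Abcc2 was lost when any 1 Adult mouse was left out, with adjusted p = 0.0608 without A1, 0.0637 without A2, 0.0652 without A3, 0.0791 without A4 and 0.0697 without A5, and it was lost in a fit of Old and Adult mice alone (adjusted p = 0.132) and without the low-count filter (adjusted p = 0.0577). The change itself stayed between -0.73 and -0.53 over all 15 fits without 1 mouse. The PDX call held in each of these fits, with adjusted p-values of 0.00357 to 0.0488.

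The sterol transporter partners moved as a pair. Abcg5 (ENSMUSG00000040505, GRCm38 chr17:84658234-84683011, minus strand) had 149, 142, 115, 179 and 117 CPM in A1 to A5. It had 57.9, 53.0, 62.9, 84.1 and 32.6 CPM in O1 to O5, and 128, 95.3, 102, 75.7 and 56.8 CPM in P1 to P5. Every Old mouse was below every Adult mouse, and the PDX mice lay between and overlapped with both groups.

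Abcg8 (ENSMUSG00000024254, GRCm38 chr17:84676302-84700333, plus strand) had 168, 143, 127, 223 and 123 CPM in A1 to A5. It had 60.4, 50.4, 83.0, 95.7 and 50.3 CPM in O1 to O5, and 145, 102, 115, 84.1 and 61.4 CPM in P1 to P5. The order of the groups was that of Abcg5, again with no Old mouse in the Adult range. The annotated genes overlap on opposite strands, since a longer Abcg8 transcript starts inside Abcg5, and the authors counted reads on the gene's own strand from strand-specific libraries.

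In Old against Adult mice, Abcg5 fell by 1.27 ± 0.25 (log2, SE; adjusted p = 0.0148) and Abcg8 by 1.20 ± 0.25 (adjusted p = 0.0194), to 41.4% and 43.4% of the Adult mean. O3, which lay inside the Adult range for Slc10a1 and Abcb11, was at 62.9 CPM for Abcg5 and 83.0 CPM for Abcg8, below all Adult mice. The Abcg5 call held without any single mouse (adjusted p = 0.0101 to 0.0450). The Abcg8 call was lost without A1 (adjusted p = 0.0505), without A4 (adjusted p = 0.0552) and in the fit of Old and Adult mice alone (adjusted p = 0.0570).

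In PDX mice both partners stood at about 65% of the Adult mean, at 65.2% for Abcg5 and 64.9% for Abcg8. Against Adult mice the changes were -0.62 ± 0.24 (adjusted p = 0.166) and -0.62 ± 0.25 (adjusted p = 0.173). Against Old mice, Abcg5 was 0.66 ± 0.24 higher (log2, SE; unadjusted p = 0.0165) and Abcg8 0.58 ± 0.25 higher (unadjusted p = 0.0344), and neither passed after adjustment (adjusted p = 0.793 for both). P1, P2 and P3 were above every Old mouse for both genes, and P4 and P5 were not. These were the 2 of 10 members with an unadjusted p under 0.05 between PDX and Old, where 834 of all genes (5.28%) had one.

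**Figure D3:**
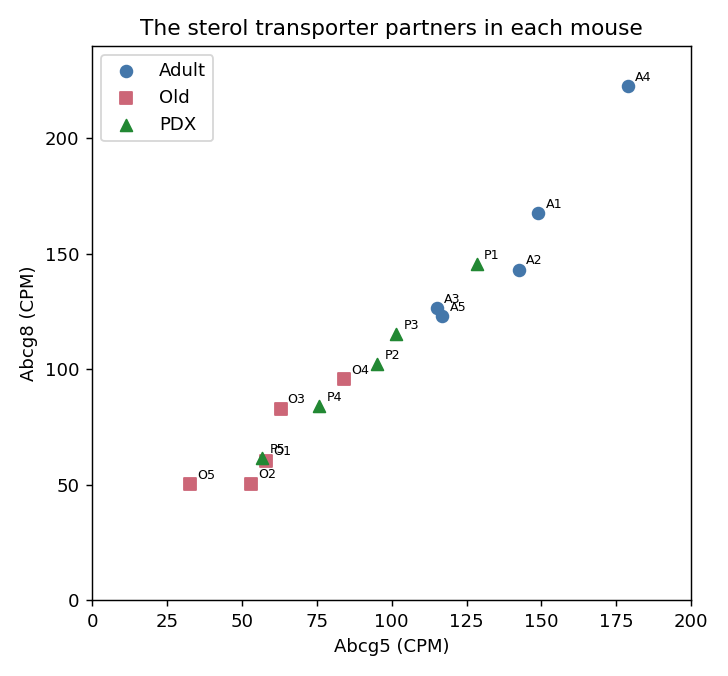
Abcg8 (vertical axis, CPM) against Abcg5 (horizontal axis, CPM) in each mouse, with the mouse number beside its point and both axes starting at 0. The Old mice fill the lower left up to 84.1 CPM of Abcg5, the Adult mice start at 115 CPM, and the PDX mice spread from 56.8 to 128 CPM along the same line.

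The ratio of Abcg5 to Abcg8 per length kept to a narrow band, at 1.11 to 1.38 in Adult, 0.897 to 1.45 in Old and 1.22 to 1.29 in PDX mice. The lowest ratio was that of O5 and the highest that of O2. By Pearson r of log2 CPM over the 15 mice, the gene most like Abcg5 among all genes tested was Abcg8 (r = 0.97), followed by Npr2 (0.91) and Gm7329 (0.90), and the genes most like Abcg8 after Abcg5 were Gm7329 (0.89) and Hectd3 (0.88). The points of these correlations share the group differences and the libraries.

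Of the basolateral exporters, Abcc3 (ENSMUSG00000020865, GRCm38 chr11:94343295-94392997, minus strand) was low in older mice by very different amounts. Adult levels in A1 to A5 were 464, 424, 432, 506 and 474 CPM. Old levels in O1 to O5 were 42.004, 126, 280.2, 152 and 379 CPM, and P1 to P5 had 40.2, 37.1, 184, 124 and 215 CPM. All older mice were below all Adult mice, and O1, P1 and P2 were at a level near 40 CPM. O5, lowest for uptake genes, was the highest older mouse for Abcc3. The Adult span was 1.19-fold, the Old span 9.01-fold and the PDX span 5.78-fold.

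The change of Abcc3 was -1.23 ± 0.53 (log2, SE; adjusted p = 0.150) in Old and -1.94 ± 0.55 (adjusted p = 0.0714) in PDX against Adult, and -0.71 ± 0.53 (adjusted p = 0.793) between PDX and Old mice. The change between PDX and Adult passed by DESeq2 on all mice (adjusted p = 0.00537), and by edgeR without O1 (adjusted p = 0.0376), without O2 (0.0367), without O5 (0.0288) and without P5 (0.0482).

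Abcc4 (ENSMUSG00000032849, GRCm38 chr14:118482692-118706219, minus strand), an exporter known to be induced on the blood side of hepatocytes in cholestasis, ran opposite to the rest at a low level. A1 to A5 had 7.17, 9.44, 9.12, 5.38 and 7.81 CPM. Old levels in O1 to O5 were 11.0, 13.1, 10.5, 10.1 and 13.7 CPM, and P1 to P5 had 13.1, 11.6, 12.6, 8.86 and 7.95 CPM. Every Old mouse was above every Adult mouse, and 3 of 5 PDX mice were. The change was 0.59 ± 0.18 (log2, SE; adjusted p = 0.0609) in Old and 0.48 ± 0.18 (adjusted p = 0.158) in PDX against Adult. The Old change passed by DESeq2 on all mice (0.60, adjusted p = 0.0186) and by edgeR without O3 (0.62, adjusted p = 0.0487).

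**Figure D4:**
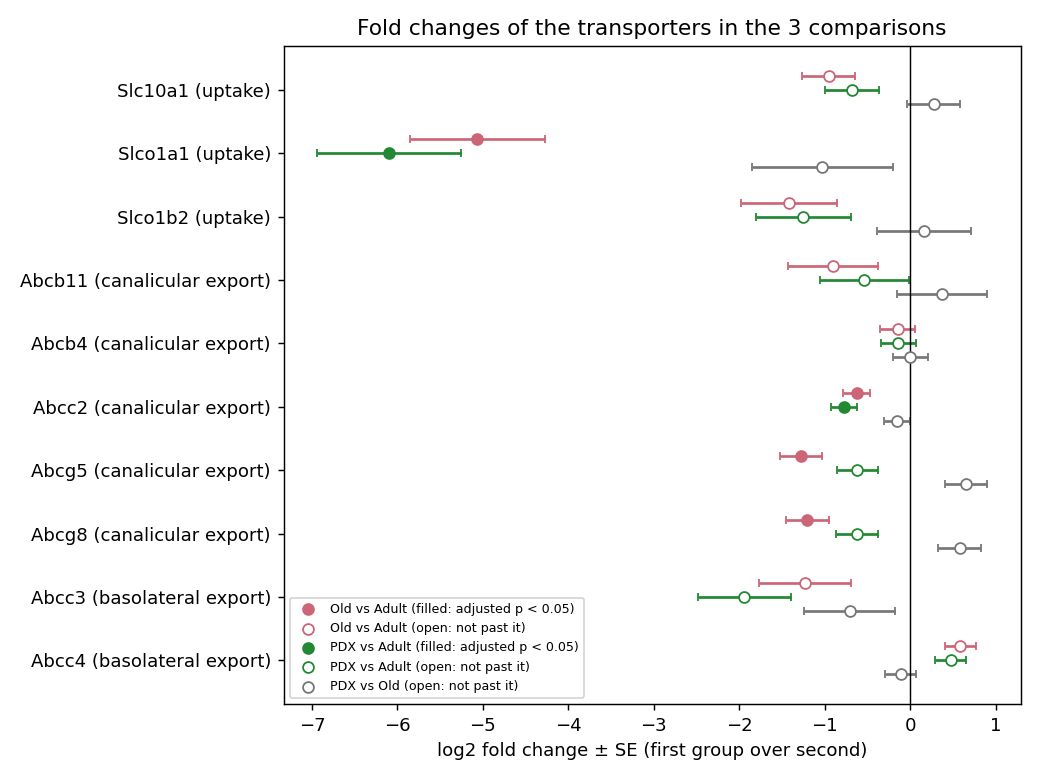
Log2 fold change with its SE (horizontal axis) of each transporter (vertical axis) for Old against Adult, PDX against Adult and PDX against Old mice, with filled points where the adjusted p was under 0.05. The Old-against-Adult and PDX-against-Adult points lie left of 0 for 9 of the 10 members and right of it for Abcc4, and no PDX-against-Old point is filled.

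Uptake was set against export by the mean over the members of a class of log2 CPM minus its Adult mean, a description with no test. The uptake mean ranged from -0.57 to 0.59 in Adult mice, from -5.18 to -1.26 in Old and from -2.91 to -1.93 in PDX mice. The canalicular mean ranged from -0.13 to 0.26 in Adult, from -1.75 to -0.46 in Old and from -0.86 to -0.35 in PDX mice. The basolateral export mean ranged from -0.18 to 0.10 in Adult, from -1.46 to 0.28 in Old and from -1.52 to -0.30 in PDX mice, and O5 was the older mouse above 0. In O5, Abcc3 was at -0.28 and the low-level Abcc4 at 0.84 on this scale. The summed CPM of both genes in O5 was 392, against 434 to 512 in Adult mice.

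The canalicular mean minus the uptake mean was 0.80 to 3.42 in Old and 1.07 to 2.45 in PDX mice, against -0.32 to 0.46 in Adult mice. The sign of this difference rests on Slco1a1 in O3 and P5, and in the other older mice its size does in part. That gene had at most 30 read pairs in an older mouse and passed the low-count filter only through the Adult mice. Without Slco1a1, an alternative chosen after seeing the data, the uptake mean was -3.97 to -0.14 in Old and -1.16 to -0.68 in PDX mice. The difference was then -0.32 to 2.22 in Old and -0.18 to 0.75 in PDX mice, against -0.16 to 0.25 in Adult mice, and in O3 and P5 the uptake mean lay above the canalicular mean. Within the canalicular class, the bile acid, anion and phospholipid genes (Abcb11, Abcb4 and Abcc2) averaged -0.81 in Old and -0.48 in PDX mice, and the sterol pair averaged -1.27 and -0.65.

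**Figure D5:**
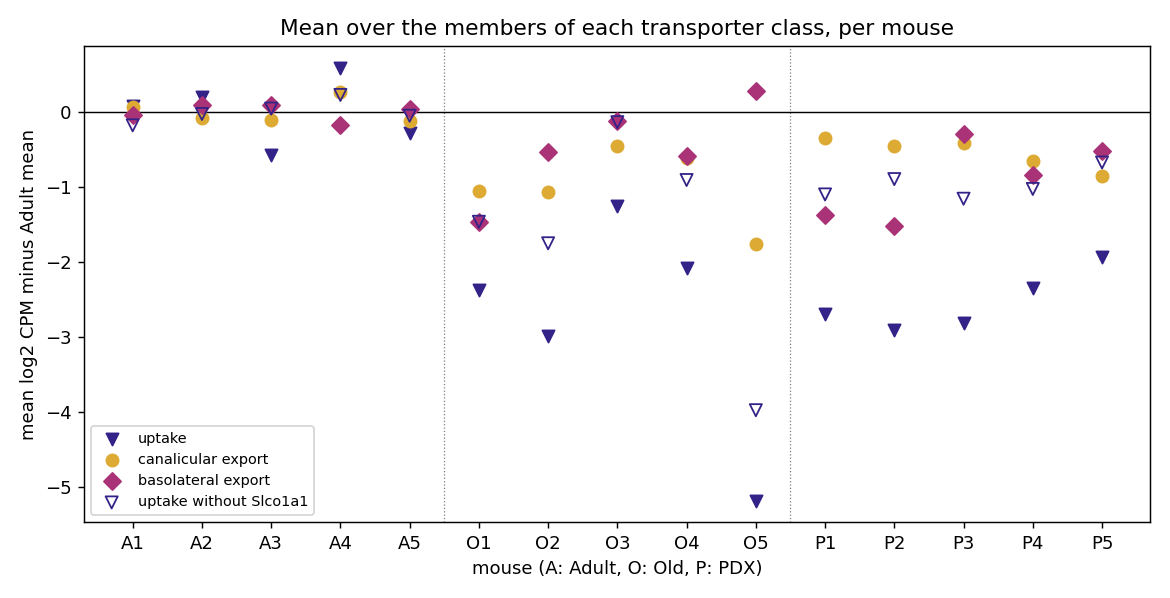
Mean over the members of each transporter class of log2 CPM minus the Adult mean (vertical axis) in each mouse (horizontal axis), for uptake, canalicular export and basolateral export as filled points and for uptake without Slco1a1 as open points, with dotted lines between the groups. The filled uptake points of all older mice lie between -5.18 and -1.26, the open ones between -3.97 and -0.14 and in O3 and P5 above the canalicular point, and O5 has the lowest uptake and canalicular points and the highest basolateral point.

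Counted by mouse, each older animal had 6 to 9 of the 10 members below the Adult range, where 23.8% to 39.4% of all genes tested lay below it in the same mice. O1 and O4 had 9 members below it and Abcc4 above it. O3 had 6 below (Slco1a1, Slco1b2, Abcc2, Abcg5, Abcg8 and Abcc3), Abcc4 above and Slc10a1, Abcb11 and Abcb4 within it. P1 also had 6 below, with Abcg5, Abcg8 and Abcb4 within the Adult range. P5 had 9 below and Abcc4 within it.

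Between PDX and Old mice, 0 of the 10 members passed edgeR's test, where 0.0% of all genes passed at 0.05 and also at 0.25, the threshold of the study for this comparison. DESeq2 called 0 genes as well. No member lay without overlap between these groups, where 0.342% of all genes did. The estimates were above 0 for 6 members (Slc10a1, Slco1b2, Abcb11, Abcb4, Abcg5 and Abcg8) and below it for 4, with a median of 0.08 beside -0.07 over all genes. The signs for Slc10a1, Slco1b2, Abcb11 and Abcc4 turned without O2 and O5, to -0.14, -0.30, -0.08 and 0.04, while Abcg5 and Abcg8 stayed above 0 in every fit without 1 mouse, at 0.50 to 0.83 and 0.42 to 0.74.

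The other genes of bile and sterol transport were followed as a list of 20, of which 18 could be tested. By edgeR, 1 was higher and 2 were lower in Old against Adult mice, and 1 was higher and 0 were lower in PDX against Adult mice, where 5 had an unadjusted p under 0.05. DESeq2 called 4 in Old (Abcb1b with the same 3) and 3 in PDX mice (Slc10a2 and Slc22a7 higher, Slc27a5 lower). For this list and those below, 6.78% of all genes passed edgeR's test in Old and 2.66% in PDX against Adult mice. Slc10a2, the ileal sodium-dependent bile acid carrier, which in liver is known from cholangiocytes, rose in both. It had 6.74 to 13.4 CPM in Adult, 16.9 to 49.1 CPM in Old and 27.7 to 98.8 CPM in PDX mice, with changes of 1.85 ± 0.33 (log2, SE; adjusted p = 0.0110) and 2.71 ± 0.34 (adjusted p = 0.00101). Neither older group overlapped with the Adult group.

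Cholangiocyte markers were given beside Slc10a2 because of its known site. The summed level of 8 such markers was 97.3 to 108.6 CPM in Adult, 101 to 153 CPM in Old and 111 to 160.3 CPM in PDX mice. By edgeR 0 of 7 tested markers passed in Old (5 at an unadjusted p under 0.05, 2 by DESeq2) and 1 of 7 (Spp1, higher) passed in PDX against Adult, and the defining keratin Krt19 was at 1.5003 to 4.09, 2.08 to 10.5 and 1.74 to 5.95 CPM in the 3 groups. Of 6 markers of intestinal and renal epithelium, Sis and Slc12a1 were at 0 in all mice, Slc34a1 and Umod reached at most 0.0715 and 0.260 CPM, Vil1 reached 0.794 CPM, and Fabp2 was at 4.15 to 52.5 CPM. The part of cholangiocytes in the level of Slc10a2 was not tested.

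Slc27a5 encodes the ligase that joins recycled bile acids to coenzyme A. It fell in Old mice (535 to 1174 CPM against 1529 to 1702 CPM in Adult, -0.95 ± 0.20, adjusted p = 0.0216) and was at 832 to 1259 CPM in PDX mice (-0.70 ± 0.20, adjusted p = 0.0776). Abcc6, a basolateral exporter, fell in Old mice (53.0 to 252 CPM against 263 to 329 CPM in Adult, -1.06 ± 0.29, adjusted p = 0.0418) and was at 157 to 208 CPM in PDX mice (-0.69 ± 0.29, adjusted p = 0.188). Slco1a4, the close relative of Slco1a1, stood at 119 to 165 CPM in Adult mice, at 56.2 to 142 CPM in O1 to O4, and at 599.5 CPM in O5, the mouse with no Slco1a1 read pair. Slc51a, a subunit of the basolateral organic solute carrier, was at or near 0 in all mice (at most 0.0372 CPM) and its partner Slc51b was at 0.439 to 2.15 CPM, so this route could not be compared.

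Of 16 receptors and regulators of these genes, 15 could be tested, and 0 passed in Old against Adult mice by edgeR's adjusted p, while 5 had an unadjusted p under 0.05 and DESeq2 called 3 (Nr1h4, Nr1i2 and Nr1i3). In PDX against Adult mice DESeq2 called 3 (Nr1h4, Nr1i3 and Nr5a2) and edgeR 1: Nr1i3, the xenobiotic receptor CAR, with 270.5 to 525 CPM in Adult and 124 to 247 CPM in PDX mice (-1.04 ± 0.26, adjusted p = 0.0432). Nr1h4 was at 111 to 174 CPM in Adult, 37.5 to 122 CPM in Old and 64.3 to 93.9 CPM in PDX mice, a change of -0.80 ± 0.25 in both older groups that did not pass (adjusted p = 0.0606 and 0.0931). The estimates lay below 0 for 13 of the 15 in each comparison, with medians of -0.11 and -0.31, beside 0.07 and -0.01 over all genes.

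Of 13 genes that anchor or deliver canalicular proteins or seal the canaliculus, 1 passed edgeR's test in each comparison with Adult mice, and DESeq2 called Ezr as well in Old. That gene of both comparisons was Rdx, which encodes radixin, the ezrin-family protein that links canalicular transporters such as the Abcc2 product to actin. It had 162 to 214 CPM in Adult, 94.2 to 185 CPM in Old and 98.4 to 120.3 CPM in PDX mice, with changes of -0.67 ± 0.17 (log2, SE; adjusted p = 0.0370) and -0.77 ± 0.18 (adjusted p = 0.0294). O3, at 185 CPM, was the one Old mouse inside the Adult range of Rdx. The median of the 13 genes was -0.03 in Old and 0.00 in PDX against Adult.

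Markers of zones and cells moved beside the transporters. Of 8 pericentral hepatocyte genes, 3 fell in Old (Oat, Cyp2e1 and Cyp1a2) and 3 in PDX against Adult mice, and of 8 periportal genes 1 fell in Old (Gls2) and 0 in PDX mice by edgeR. Of the periportal genes, 2 in Old and 3 in PDX mice had an unadjusted p under 0.05, and DESeq2 called 2 (Gls2 and Hal) and 1. Of 8 acute phase genes, 4 rose in Old and 6 in PDX mice by edgeR, such as Lcn2, with 5.74 to 24.0 CPM in Adult, 97.4 to 918 CPM in Old and 202 to 1201 CPM in PDX mice. DESeq2 called 6 of them in Old and 5 in PDX mice, and all 8 had an unadjusted p under 0.05 by edgeR in both. Of 8 hepatocyte markers, 1 passed edgeR's test in each comparison, which was Hpx, higher and itself an acute phase gene. DESeq2 called Apoa1 as well in both and Ttr in Old, where edgeR gave 0.62 ± 0.24 for Apoa1 (adjusted p = 0.107) and -1.04 ± 0.36 for Ttr (adjusted p = 0.0782). Ttr, the thyroxine carrier transthyretin, was at 4640 to 5765 CPM in Adult, 643 to 3663 CPM in Old and 2462 to 4549 CPM in PDX mice, without overlap with Adult. The summed level of the 8 markers was 127458 to 141285 CPM in Adult, 84319 to 212195 CPM in Old and 135076 to 173490 CPM in PDX mice. Their part in the transporter levels was not tested.

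Markers of blood-derived and resident non-hepatocyte cells were followed too. In Old against Adult mice, all 5 tested neutrophil genes, 2 of 7 lymphocyte genes, 1 of 7 stellate cell genes (Col1a1), 0 of 7 Kupffer cell and macrophage genes and 0 of 7 sinusoidal endothelial genes passed edgeR's test, and those that passed were higher. At an unadjusted p under 0.05 these lists had 5, 6, 5, 2 and 3 genes, in that order, and DESeq2 called 5, 5, 3, 1 and 0. Over all genes tested, 6.78% passed edgeR's test in Old and 2.66% in PDX against Adult mice, in either direction. The neutrophil genes Mpo and Elane reached at most 0.137 and 0.0912 CPM in Adult mice, and Ngp had an Adult median of 0.256 CPM and a maximum of 0.730 CPM. Mpo, Elane and Ngp passed the low-count filter only through the older mice, where they were high, so their calls are not independent of the filter. Ly6g was too low to be tested. In PDX against Adult mice, 2 of 5 neutrophil genes and 1 of 7 lymphocyte genes passed edgeR's test, all higher, and 0 of the other 3 lists did. DESeq2 called 5 neutrophil, 3 lymphocyte, 1 stellate cell, 2 Kupffer cell and macrophage and 0 sinusoidal endothelial genes there, and 5, 5, 1, 4 and 0 genes of these lists had an unadjusted p under 0.05. The summed Kupffer cell and macrophage level was 267 to 2753 CPM in Old and 680.2 to 1457 CPM in PDX mice. Of 6 tested male-biased liver genes, 1 passed edgeR's test as lower in each older group, and this was Slco1a1 itself. DESeq2 called Mup20, a major urinary protein gene, as well in both, with 13.6 to 26.4 CPM in Adult, 0.469 to 7.12 CPM in Old and 0.552 to 8.71 CPM in PDX mice (edgeR -2.09 ± 0.63, adjusted p = 0.0578, and -2.45 ± 0.64, adjusted p = 0.0555). Of 8 female-biased genes, 0 passed edgeR's test in either comparison, while 3 in Old and 5 in PDX mice had an unadjusted p under 0.05 and DESeq2 called 2 and 5. Of 2 tested genes of intestinal and renal epithelium, 0 passed by either tool, with 0 at an unadjusted p under 0.05.

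The genes most like the remaining called members, by Pearson r of log2 CPM over the 15 mice, were pericentral in part. For Slco1a1 they were Cyp2e1 (r = 0.94), Slc35a3 (0.94) and Rassf8 (0.94). For Abcc2 they were Oat (0.95), Acot12 (0.95) and Mia2 (0.95). Mean levels of Oat were 1673 CPM in Adult, 736 CPM in Old and 509.8 CPM in PDX mice, and those of Abcc2 were 427, 276 and 249 CPM. Among pairs of members, Abcc2 and Abcc3 had r = 0.82 and Abcb11 and Abcc3 had r = 0.01, and these points share libraries and group differences.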

How the data were processed

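Poly(A)-selected, strand-specific liver RNA libraries were sequenced from 15 mice, 1 library per mouse. The authors aligned paired reads to mm10 with STAR (2.6.0c) and made counts of unique proper pairs per Ensembl gene, on the gene's strand and without mitochondrial genes, with featureCounts (Subread 1.6.2). These deposited counts are not normalized. A table of variance-stabilized values on a log2 scale, which the authors made with DESeq2 (1.23.10), was not used.

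Of 55450 IDs, 55104 received a symbol from GENCODE M21 on GRCm38, the assembly mm10 names. Counts were analysed with edgeR (4.0.16) in R 4.3.3: filterByExpr by group (minimum count 10, minimum total 15), TMM scaling, and the quasi-likelihood test with a term per group over all 15 mice, Benjamini-Hochberg adjusted, two-sided. Log2 CPM used a prior count of 2, and TPM used exon lengths. The steps were tested on simulated data. Alternatives were DESeq2 (1.42.0), its size factors, no low-count filter, fits of the compared groups, fits without each mouse or without O2 and O5, and a replicate block, whose numbers did not pair mice (correlations of deviations of same-numbered mice -0.215 to -0.110 between Old and Adult, -0.0469 to 0.146 between PDX and Adult and -0.0389 to 0.285 between PDX and Old).

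All members are named, and list genes where they passed, with exceptions named for O5 and for known roles after their values were seen. The members and lists were chosen with earlier results of these data known. Mice were euthanized in batches, with the groups alternated within a batch. Which mouse was in which batch is not given in the sources used here, and the part of batch was not tested.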

Additional observations from a re-analysis of the deposited data

Results flagged for a closer look

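Of 30 groups of 5 mice, 1 for each member and group, 2 had a mouse set apart from the others by Dixon's ratio, the gap to the nearest mouse divided by the range of the group on the log2 CPM scale. About 1 in 20 groups is set apart in this way by chance. Abcb11 in O5 was the lowest of the Old group with a ratio of 0.766, at 22.1 CPM against 361 to 846 CPM in the other Old mice. Abcc2 in A4 was the highest of the Adult group with a ratio of 0.738, at 511 CPM against 392 to 419.9 CPM in the other Adult mice.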

How the results depend on the processing

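Between Old and Adult mice, 1072 genes and 4 members passed in the fit of all mice. The counts were 665 genes without the low-count filter, 2524 genes and 7 members with DESeq2, 105 genes and 2 members with only the compared groups, and 237 genes with the replicate block. Over the fits without 1 mouse they ranged from 156 genes (without A5) to 2178 (without O3) and from 2 members (without A1 or A4) to 7 (without O3). Between PDX and Adult mice, 420 genes and 2 members passed, with 1383 genes by DESeq2, 4529 genes and 7 members in the fit of those groups alone, and 4004 genes and 8 members without O2 and O5. Without 1 mouse these ranged from 166 genes (without A5) to 1766 (without O2) and from 2 to 4 members (4 without O5). Between PDX and Old mice, every setting gave 0 genes. The cause of these changes was not tested.

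Some signs turned, none of them in a called change. Abcb4 in Old against Adult ranged from -0.35 to 0.0032 without 1 mouse. In PDX against Old, Slco1b2 ranged from -0.14 to 0.69 and Abcb4 from -0.14 to 0.20 without 1 mouse. Abcb4 was at -0.0070 with the size factors of DESeq2, at -0.0070 with its Wald test and at -0.016 with only the compared groups, and without O2 and O5 the estimates were -0.14 for Slc10a1, -0.30 for Slco1b2, -0.077 for Abcb11 and 0.044 for Abcc4.

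The replicate block used numbers that did not pair the mice. With it Abcc2 no longer passed in Old (adjusted p = 0.0667), and Abcc3 passed in PDX against Adult (adjusted p = 0.0207). In the fit of PDX and Old mice alone, Slco1a1 fell under the low-count filter and was not tested. Depth limits Slco1a1 most, with at most 30 read pairs in an older mouse.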

Other observations

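Slc22a7, which encodes an organic anion carrier of the basolateral membrane, was not past the threshold of edgeR in either comparison with Adult mice, and DESeq2 called it higher in PDX mice. It was at 6.79 to 14.0 CPM in Adult mice, at 68.1, 22.3, 26.7, 54.7 and 0.794 CPM in O1 to O5, and at 100.4, 161, 38.1, 70.3 and 18.5 CPM in P1 to P5. The change was 1.70 ± 0.73 (log2, SE; edgeR, adjusted p = 0.148) in Old and 2.87 ± 0.76 (adjusted p = 0.0586) in PDX against Adult. All PDX mice were above all Adult mice, as 4 of the Old mice were, and O5 was below them. This gene was picked after its values were seen.

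O5 also stood apart in genes outside bile transport. Cyp2d9, a male-biased liver gene, was at 477 CPM in O5, against 1.76 to 9.73 CPM in the other Old mice and 19.4 to 64.4 CPM in Adult mice. Abca1, the cholesterol exporter of the basolateral membrane, was at 262 CPM in O5 and at 75.8 to 107 CPM in all other mice.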
